A study of Thermomyces lanuginosus with 4 samples.

Results

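A group of 210 gene IDs was abundant in mycelium of Thermomyces lanuginosus on both carbon sources and had similar levels on each. They are 210 of the 9704 IDs in the tables. The members were chosen by their measured levels: at least 150 FPKM (fragments counted per kilobase of transcript and per 1000000 fragments mapped) in all 4 libraries, and a ratio R of mean Avicel FPKM + 1 to mean glucose FPKM + 1 from 0.8 to its inverse. The level criterion alone was met by 494 IDs, of which 166 had a ratio above that window and 118 a ratio below it. Because the choice used the Avicel and glucose values of every library, levels and ratios of the members are given as a description. No p-value of a member is printed, and the test calls given below are a description too.

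The study sequenced RNA of strain P134, a thermophilic filamentous fungus, from mycelium 2 days old. The first group was cultured on Avicel, a microcrystalline cellulose, and the second on glucose, with 2 libraries each. No genetic change or further treatment is named in the labels, and whether a group's libraries are from separate cultures is not stated, so their spread may be technical. Library totals lay between 541446 and 556312 FPKM, and the number of reads behind them is unknown.

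Cellulose is a polymer of glucose that a fungus must break down outside the cell with secreted enzymes before it can take up the sugar, whereas glucose is taken up directly. Growth on a polymer is known to change the expression of genes for such enzymes and for sugar transport. Transcripts that stay abundant whatever the sugar is are, in filamentous fungi generally, often those of ribosomal proteins, translation factors, histones, glycolytic enzymes and the cytoskeleton. Transcripts with steady levels also serve as internal references when other genes are measured. Which of the 210 IDs belong to any of these classes is not known here. The files pair no ID with a gene name, and 0 of the 9704 IDs matched the RefSeq gene table of another strain (assembly Thela1). Members are therefore described by rank and level, with IDs for 6 of them, and no sequence is printed.

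The members covered a wide range of levels. Their mean over the 4 libraries ran from 158 to 5944 FPKM with a median of 259 FPKM, and 3 in 4 members were below about 413 FPKM. Of the summed FPKM they held 15.2% ± 0.01 in Avicel libraries and 15.4% ± 0.24 in glucose libraries (SD, n = 2 each). The abundant genes above the ratio window held 22.7% ± 0.03 in Avicel libraries and 11.8% ± 0.25 in glucose libraries, and those below it 7.86% ± 0.03 in Avicel and 17.5% ± 0.05 in glucose libraries (SD over 2 libraries in each case). The direction of these last shares was fixed by the choice of the genes. The near-equal shares of the members also follow from the rule, which bounds each member's ratio.

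**Figure D1:**
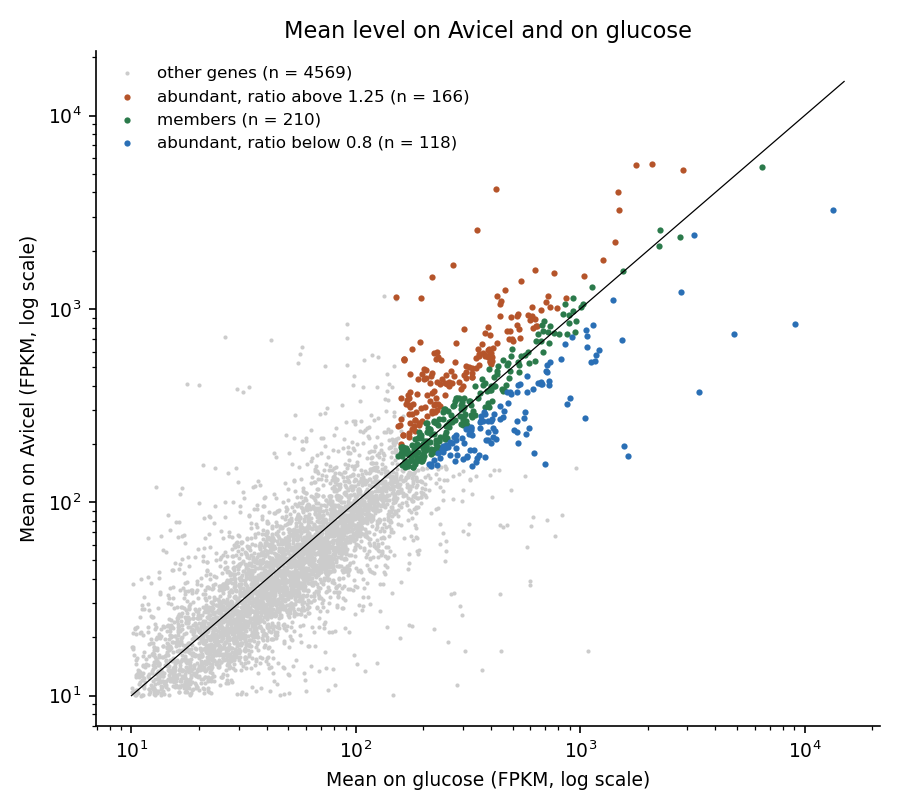
Mean FPKM on Avicel (vertical axis, log scale) against mean FPKM on glucose (horizontal axis, log scale), 1 point per gene, with the line of equal level. The 210 members form a band around the line between the 166 abundant genes above the ratio window and the 118 below it; grey points are the other genes that averaged 10 FPKM or more on each carbon source.

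The most abundant member stood apart from the rest. It had 5166 and 5630 FPKM on Avicel, against 5724 and 7256 FPKM on glucose. It ranked 5 among all genes by mean level on Avicel and 3 on glucose, and alone supplied 6.18% to 8.40% of the members' summed FPKM in a library. Both Avicel libraries were below both glucose libraries, but the glucose libraries differed from each other by 23.6% of their mean. Its log2 change, Avicel over glucose on the log2(FPKM + 1) scale used throughout, was -0.26 ± 0.15 (SE), and its highest library was 1.405 times its lowest.

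The members next in level were c8878_g1, and then 3 that were called neither higher nor lower by limma (a test at an adjusted p below 0.05, over all tested genes). The gene c8878_g1 had 2372 and 2312 FPKM on Avicel, against 2799 and 2797 FPKM on glucose. Its Avicel libraries were both lower and its glucose libraries were within 0.08% of each other. The third member by level had 2533 and 2564 FPKM on Avicel and 2107 and 2409 FPKM on glucose, the fourth 2140 and 2065 FPKM on Avicel and 2266 and 2207 FPKM on glucose. These lay on opposite sides, the third higher and the fourth lower in both Avicel libraries. The fifth, with 1587 and 1545 FPKM on Avicel and 1567 and 1525 FPKM on glucose, was the most abundant member whose libraries overlapped between the carbon sources. Below it, 4 more members had a mean above 1000 FPKM. The 10 most abundant members supplied 23.3% ± 0.20 of the members' summed FPKM with Avicel and 24.02% ± 0.67 with glucose as the carbon source (SD, n = 2 each).

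**Figure D2:**
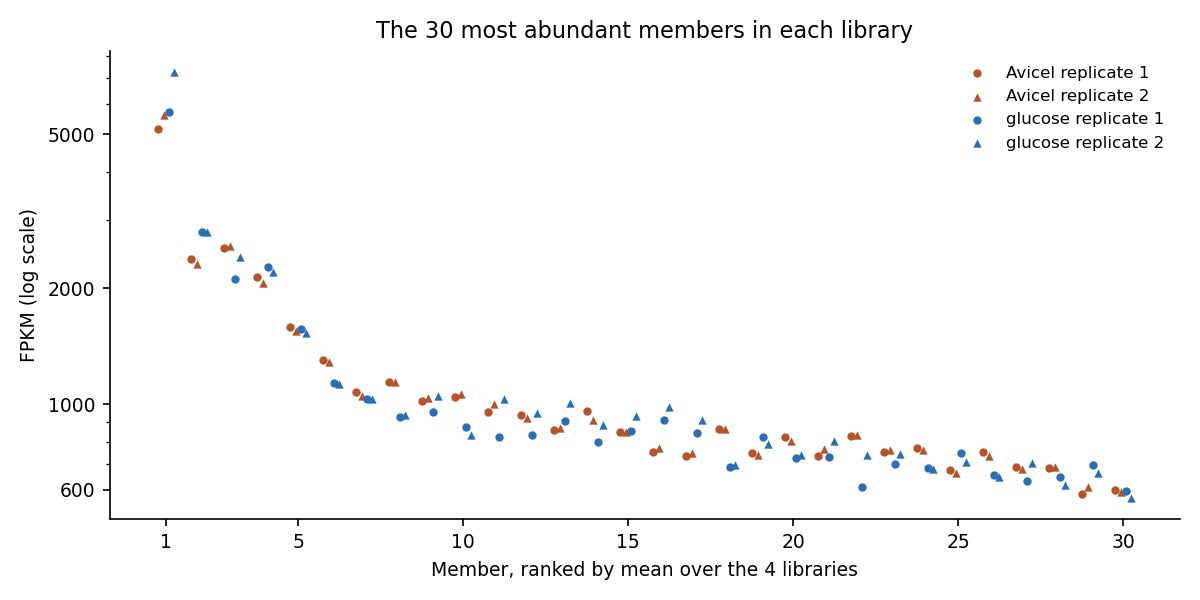
FPKM (log scale) of the 30 most abundant members in each library, ranked by their mean over the 4 libraries; circles are replicate 1 and triangles replicate 2. Levels drop steeply over the first 6 members, and the 4 libraries of a member stay close together, with the largest distance at the first member, whose values run from 5166 to 7256 FPKM.

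Members were present in the shared top of the transcript list. Of the 59 genes among the 100 most abundant in all 4 libraries, 28 were members. Of all 494 abundant genes, 210 (42.5%) were members. Of the 76 genes in the top 100 by mean level on 1 carbon source alone, 2 were members. These counts use the same values as the rule. The order of the members was largely kept. Spearman's rho over the 210 members was 0.937 to 0.945 for an Avicel with a glucose library. Within a carbon source it was 0.995 on Avicel and 0.979 on glucose. Genes in a library share its scale and the rule bounds how far a member can move, so these values only describe the order. By place among all 9704 genes, members moved by a median of 38 places between the carbon sources. On Avicel 136 were placed lower than on glucose and 72 higher.

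Within the allowed window the ratios were spread out and not gathered at 1. The median R was 0.99, with quartiles of 0.89 and 1.11. A ratio within 5% of 1 was found in 61 members, while 56 lay below 0.9 and 50 above 1.11. Taking single libraries, the highest value exceeded the lowest by at most 5% in 16 members, by at most 10% in 57 and by at most 20% in 138. The widest ratio of highest to lowest library was 1.49.

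Genes just inside and just outside the bounds had nearly the same values. The members nearest the lower ratio bound had R of 0.8005 and 0.803, and the closest abundant genes outside it 0.799 and 0.795. At the upper bound the nearest members had R of 1.249 and the closest genes outside it 1.256 and 1.260. The lowest single value of a member was 151 FPKM, and 16 genes with a ratio in the window missed the level because their lowest library had 140 to 150 FPKM.

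The share of members among abundant genes differed by level, in part through the level criterion itself. Among abundant genes with a mean of 200 to 300 FPKM, 65 of 144 (45.1%) were members. From 300 to 500 FPKM 46 of 151 (30.5%) were members, from 500 to 1000 FPKM 30 (29.7%) and above 1000 FPKM 9 of 29 (31.0%). The 60 of 69 (87.0%) at a mean of 150 to 200 FPKM follow from the rule, since a gene that low on average and with no library under 150 FPKM cannot differ much. The criterion also limits the ratio, less closely, from 200 to 300 FPKM, so the order of these shares is not a result. Among genes whose lowest library had 50 to 150 FPKM, 770 of 1612 (47.8%) had a ratio in the same window, and from 10 to 50 FPKM it was 1110 of 2891 (38.4%). Above 300 FPKM, genes above the window outnumbered members, with 65 against 46 between 300 and 500 FPKM and 44 against 30 between 500 and 1000 FPKM.

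Over the abundant genes, replicate libraries were closer on Avicel than on glucose. The gap between replicates, as a percentage of their mean, had a median of 1.84% on Avicel and 4.40% on glucose over the members. It was larger on glucose in 156 of the 210. The largest gap was 9.83% on Avicel and 39.1% on glucose. The abundant genes outside the window had like gaps, with medians of 2.15% on Avicel and 4.89% on glucose above it and of 1.87% on Avicel and 3.86% on glucose below it. The wider glucose gap was thus seen in all 3 sets of abundant genes. The gaps were taken on deposited FPKM without rescaling. Library totals were 551462 and 553234 FPKM on Avicel and 541446 and 556312 FPKM on glucose. How much of the glucose gap goes with the difference in totals was not tested.

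The difference between the carbon-source means had a median of 10.7% in the members. In 62 of 210 members (29.5%) a gap between replicates was larger than that difference, mostly the glucose gap, in 58. The same held for 24.1% of all 8261 genes that reached 1 FPKM in 2 or more libraries and were tested. It held for 0 of the 284 abundant genes outside the window. The rule caps this difference in members and demands a larger one outside the window, so both counts are partly built in. For 8 members the glucose libraries differed by more than 20%, and in 7 of these replicate 2 was the higher one. The widest case had 461 and 464 FPKM on Avicel, against 341 and 507 FPKM on glucose. Both Avicel values fell between the glucose values, and its mean ratio of 1.09 therefore rests on glucose libraries that lay on either side of the Avicel ones.

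**Figure D3:**
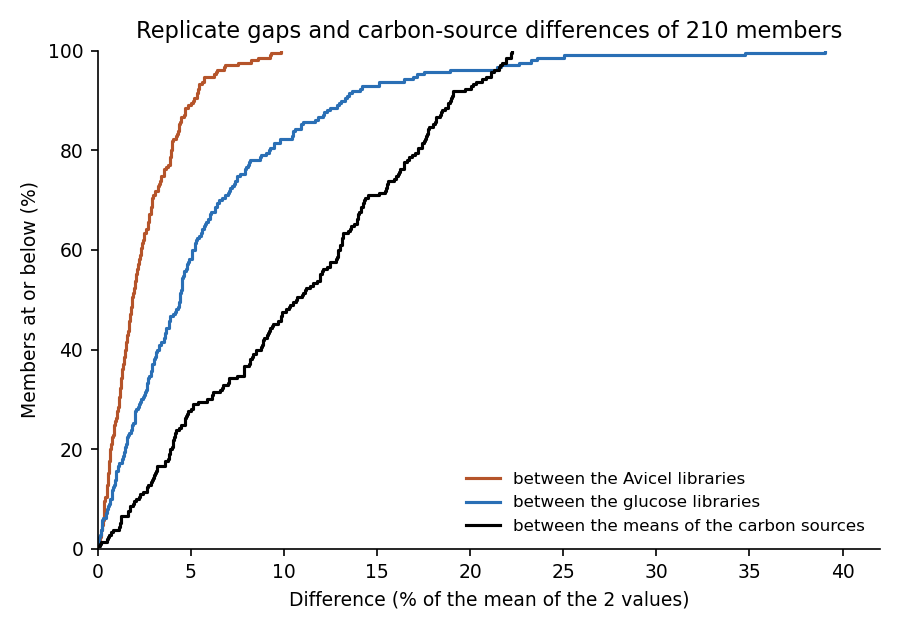
Cumulative share of the 210 members (vertical axis, %) at or below a given difference (horizontal axis, % of the mean of the 2 values) between the Avicel libraries, between the glucose libraries and between the carbon-source means. The medians are 1.84%, 4.40% and 10.7%; no Avicel gap is above 9.83%, while the glucose gaps reach 39.1%.

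Library order and calls of the members are given here beside those of all tested genes. Every Avicel value was above every glucose value in 78 members (37.1%; 30.7% of all tested genes) and below in 91 (43.3%; 51.3% of all tested genes), and 41 overlapped. By limma's moderated test on log2(FPKM + 1), with Benjamini-Hochberg adjustment over the 8261 tested genes and a call at an adjusted p below 0.05, 112 of 210 members (53.3%) were called, against 62.6% of all tested genes. Of the members 59 were called higher on Avicel (23.1% of all tested genes) and 53 lower (39.5% of all tested genes). The rule used the same contrast, so nothing is read from these shares. The median log2 change was -0.02 over the members and -0.16 over all tested genes.

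The called differences were small because the rule keeps R between 0.8 and its inverse. The outer ends near 0.32 in either direction are set by that bound. Members called higher had log2 changes from 0.09 to 0.32 with a median of 0.20, and those called lower from -0.10 to -0.32 with a median of -0.23; the standard error had a median of 0.03 in each. The 98 that were not called had wider glucose gaps, with a median of 6.05%, against 2.90% in those called higher and 3.16% in those called lower. A call is computed from the replicate spread and the size of the change, so these gaps follow from the test. Of the members with R from 0.8 to 0.9, 46 of 56 were called lower, and of those from 0.9 to 1, 7 of 54. Between 1 and 1.11, 15 of 50 were called higher, and above 1.11, 44 of 50. Because R is made from the tested contrast, more calls away from 1 follow from the binning. Of all tested genes 23.1% were called higher and 39.5% lower, and their shares by R were not taken. With Avicel replicate 1 left out 24 members were called (11.4%; 43.5% of all tested genes), and with Avicel replicate 2 left out 28 (13.3%; 43.7%). With glucose replicate 1 left out it was 113 (53.8%; 53.9%), and with glucose replicate 2 left out 116 (55.2%; 52.9%). Without an Avicel library a gene's own spread comes from its glucose pair alone, and limma moderates it toward the abundance trend of all tested genes.

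The small called differences are illustrated by 4 members, of which c8878_g1, above, is the most abundant, with a log2 change of -0.26 ± 0.05 (SE). The gene c8986_g1 had 750 and 772 FPKM on Avicel, against 909 and 984 FPKM on glucose. It was lower in both Avicel libraries, with a log2 change of -0.31 ± 0.05 (SE), close to the lower bound of the window. The gene c1471_g1 had 1304 and 1285 FPKM on Avicel, against 1135 and 1125 FPKM on glucose. It was higher in both Avicel libraries, by a log2 change of 0.20 ± 0.04 (SE). The gene c8855_g1 had 1144 and 1140 FPKM on Avicel, against 926 and 936 FPKM on glucose. Its replicates differed by 0.32% on Avicel and 1.11% on glucose. Its log2 change of 0.29 ± 0.04 (SE) was the larger of the 2 called higher. None of these 4 was called when either Avicel library was left out, and rescaling ended 3 of the calls, as given with the other scales.

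The 16 members whose highest library was within 5% of the lowest had mean levels from 158 to 1556 FPKM, and 2 of them were among the 10 most abundant members. The gene c672_g1 had 208 and 207 FPKM on Avicel, against 205 and 204 FPKM on glucose. Its highest library was 1.02 times its lowest, the smallest such ratio among the members, and its log2 change was 0.02 ± 0.03 (SE). The gene c1576_g1 had 344 and 346 FPKM on Avicel, against 352 and 346 FPKM on glucose. Its libraries overlapped between the carbon sources, and its log2 change was -0.02 ± 0.03 (SE). They ranked 141 and 68 among the members by level. The 95% interval of the change lay between ratios of 0.8 and its inverse for 137 members (65.2%; 14.9% of all tested genes) and within 1.5-fold in either direction for 206 (98.1%; 35.7% of all tested genes). The rule bounds the change, so the narrowness of these intervals is partly built in.

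Steadiness was tied to the scale of the values. An FPKM value is a share of its library, and the median tested gene had a log2 change of -0.16. Of the 210 members 156 lay above that median. After median-of-ratios scaling, which sets each library by its typical gene, the median change of the same members was 0.16 and 161 of them had a positive change; 112 were called higher (30% of all tested genes) and 1 lower (28.7% of all tested genes). After quantile normalization, which gives all libraries the same distribution, the median was -0.08, and 37 members were called higher (28.3% of all tested genes) and 78 lower (30.7% of all tested genes). The gene c672_g1 had a log2 change of 0.20 after median-of-ratios scaling, where it was called higher, and of -0.0039 after quantile normalization, where it was not called. The gene c1576_g1 was called on both scales, higher with 0.16 on the first and lower with -0.14 on the second. Scaling also ended calls: c8878_g1 had -0.08 and c8986_g1 -0.14 after median-of-ratios scaling, and c1471_g1 had 0.09 after quantile normalization, none of them called there. Their calls held with larger changes on the other scale, at -0.78 for c8878_g1 and -0.48 for c8986_g1 after quantile normalization and at 0.37 for c1471_g1 after median-of-ratios scaling. FPKM values without an added standard hold no absolute amounts, so which scale is right cannot be told from the files.

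**Figure D4:**
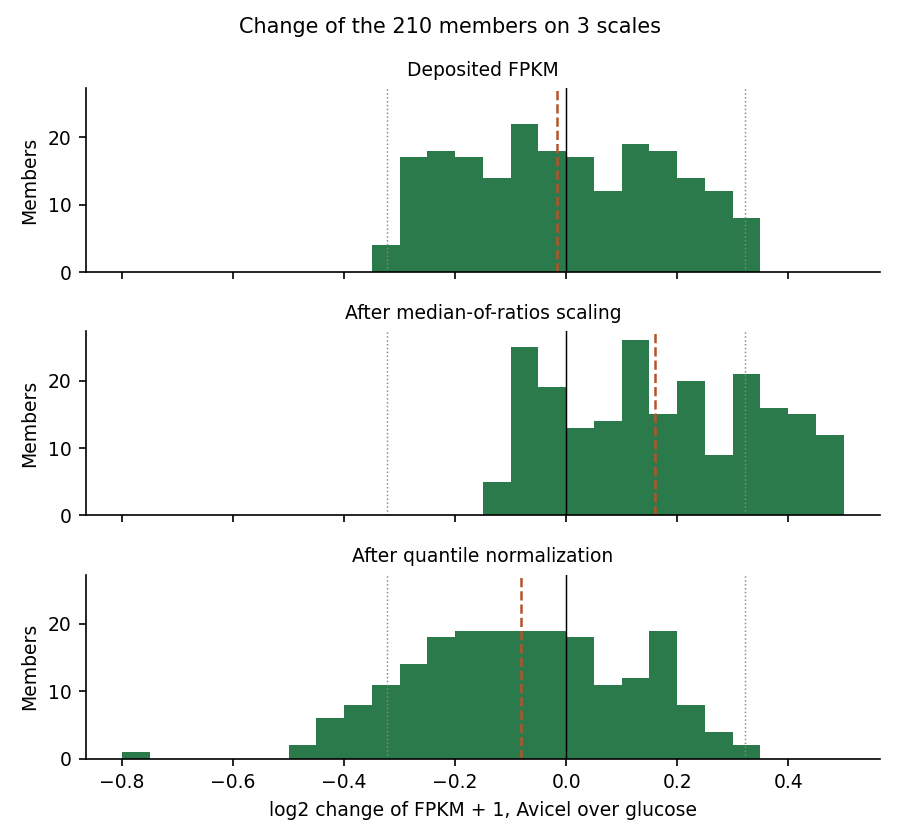
Number of members (vertical axis) by log2 change of Avicel over glucose (horizontal axis) on the deposited scale, after median-of-ratios scaling and after quantile normalization. The dashed line marks the median, at -0.02, 0.16 and -0.08, and the dotted lines mark ratios of 0.8 and its inverse, close to the bounds of the rule.

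With the rule applied to rescaled values, 154 of the 210 members were kept after median-of-ratios scaling and 183 after quantile normalization. Each scaling chose 206 genes in all. Most of the 56 lost with the first had been higher on Avicel, 53 of them, and most of the 27 lost with the second had been lower there, 25 of them. All 4 ratios between single libraries lay in the window for 179 members. A set of 121 members (57.6%), put together after the values were seen, met the rule on all 3 scales, in all 4 single ratios and with each library left out in turn. Their mean levels ran from 159 to 1556 FPKM and their deposited ratios from 0.84 to 1.11. Only 3 of the 10 most abundant members were in it, and the most abundant 4 were not.

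Most genes that met the rule on 1 replicate number also met it on the other. The genes that met it on both are the same set whichever replicate is used first. All 4 libraries had entered the choice of the members, and the replicates may not be separate cultures. The counts therefore only describe how alike the replicates were. On the first replicate of each carbon source alone, 217 genes met the rule. Read in the second replicates, which that choice did not use, 211 of them kept the level. Of the 217, 192 (88.5%) met the rule again, while 15 at that level had a ratio below the window and 4 above it. On the second replicates alone 219 genes met it. In the first replicates 215 of these kept the level, with 21 above the window and 2 below it. The same 192 (87.7%) met the rule. Among genes at 150 FPKM or more in both first replicates but outside the ratio window, 23 of 292 (7.88%) met the rule in the second. In the reverse direction it was 19 of 295 (6.44%).

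Each ID joins a component number to a gene number, and 13 members (6.19%) shared the component number with another ID, against 8.45% of the other abundant genes and 6.37% of all tested genes. No source used here says what a shared number stands for. These members had 16 such partners, of which 5 had a ratio in the window, 4 above it and 7 below it. Of the 5, 2 are members themselves and lie in the window by the rule. Of all tested genes 38.0% had a ratio in the window, which is therefore not a like comparison. In 1 pair both were members. They had 327 and 329 FPKM on Avicel and 295 and 302 FPKM on glucose in the first gene, and 290 and 271 FPKM on Avicel and 316 and 288 FPKM on glucose in the second. Another member, with 274 and 282 FPKM on Avicel and 289 and 296 FPKM on glucose, had a partner with 75.04 and 80.2 FPKM on Avicel and 228 and 247 FPKM on glucose.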

How the data were processed

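The authors deposited 1 table of FPKM values per library, rounded to 2 decimals, per the file headers. RSEM 1.2.15 and Bowtie2 are named in the submitters' processing notes; the reference, annotation and read filters are not given in sources used here. FPKM divides by transcript length, so levels of different genes can be compared. Depth is unknown, so no counting interval is given.

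The rule was applied to the deposited values, and the members, lists and tests were chosen with earlier results of these data known. All genes reaching 1 FPKM in 2 or more libraries (8261, including all 210 members) were tested with limma 3.58.1 in R 4.3.3 on log2(FPKM + 1), with an abundance trend and carbon source as the only term. Adjustment was over all of them. The fit was tested on simulated data with changes larger than any the rule allows. That test did not cover changes as small as those of the members. IDs are given for the 2 most abundant members called in each direction and for the 2 uncalled members with the smallest ratio of highest to lowest library. Figures were drawn in Python 3.11.15. Gene lists could not be built without names.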

Additional observations from a re-analysis of the deposited data

How the results depend on the processing

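With 2 libraries per carbon source and no read counts, small differences rest on how alike the replicates were. With a level of 100 or 300 FPKM the rule gave 388 and 72 members, with a ratio from 0.9 to its inverse 104, with a ratio from 2/3 to 1.5 326, and on TPM (each library summed to 1000000, so that 150 is a lower bar) 508; the set that met the rule on all 3 scales, in all 4 single ratios and with each library left out, added after seeing the data, had 121. Other rules gave 179 to 232. The share of summed FPKM on Avicel and on glucose was 19.3% and 19.6% at 100 FPKM, 9.67% and 9.82% at 300 FPKM, 15.8% and 16.01% with a mean of 150 FPKM, 7.04% and 7.08% with the narrow ratio, 24.5% and 24.6% with the wide one, 12.2% and 12.3% with all single ratios in the window, 21.2% and 21.5% on TPM, 14.1% and 16.02% after median-of-ratios scaling and 15.8% and 14.7% after quantile normalization. It was 15.1% on Avicel without a pseudocount in the ratio.

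Median-of-ratios scaling gave 112 members called higher and 1 lower with a median log2 change of 0.16, and quantile normalization 37 called higher with a median of -0.081; the cause was not tested beyond the shift given in the report. The gene c1576_g1 turned to 0.16 with the first and c672_g1 to -0.0039 with the second; c672_g1 was called with the first, at 0.20, and c1576_g1 with both. A test against a 1.5-fold change called 1421 of all tested genes and, by limma's treat, 0 members, 0 higher and 0 lower, with 0 members at an unadjusted p below 0.05, since it asks for more than the rule allows. With 1 library left out, 24 to 116 members were called, 9 to 66 higher and 14 to 63 lower, the median change lay between -0.037 and 0.0075, and all tested genes gave 3590 to 4450 calls; the lone library is then assumed to vary like the other pair. The rule itself then gave 207 to 214 members with 14.1% to 15.2% of the summed FPKM on Avicel and 14.1% to 15.8% on glucose. Equal replicate numbers are not said to share a culture. Deviations of replicate 1 from the group means correlated between the groups by -0.001 (tested genes), 0.30 (all 494 abundant genes) and 0.32 (members). With the replicate block 5029 genes and 107 members were called; 102 of these members are called without the block as well. Pseudocounts of 0.1 and 10, other filters and robust estimation gave 99 to 125 called members, 47.1% to 59.5% of the members. Of all tested genes 51.0% to 80.5% were called in these settings. Both ranges run from no filter to a filter of 10 FPKM. Members called on the deposited values and also in another setting kept their direction there. After median-of-ratios scaling these were only 60 of the 112 called on the deposited values, and after quantile normalization 83. Between these scalings c1576_g1 did turn round, called higher with the first and lower with the second.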
